A study of Homo sapiens with 24 samples.

Results

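Fatty acid (FA) synthesis has a cytosolic and a mitochondrial branch, and the RNA of 10 genes of these branches was followed in a triple-negative breast cancer line and its methionine (Met)-independent derivative. The genes were chosen by symbol from the deposited count table: ACLY, ACSS2, ACACA, and FASN of cytosolic synthesis, the long-chain acyl-CoA synthetases ACSL1, ACSL3, and ACSL4, and OXSM, MECR, and MCAT of mitochondrial synthesis. They are 10 of 26645 gene rows, and all 10 passed the filter on low counts. MB468 (MDA-MB-468) is an established epithelial line that needs Met and stops dividing when given only homocysteine (Hcy), its precursor, and MB468res-R8 (MDA-MB-468res-R8, labelled R8) is 1 clone derived from it that keeps dividing on Hcy. Both lines were grown in Met+ medium with 100 µM methionine (0 h) and sampled after 0.5, 2, and 12 h in Met-Hcy+ medium, in which 370 µM DL-homocysteine stood in for Met. Each of the 8 groups had 3 libraries, and all media held dialyzed serum, cyanocobalamin, glutamine, and cysteine. No group was kept in Met+ medium beyond 0 h, so at each later time the medium and the time after the switch cannot be told apart.

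Cytosolic synthesis starts from acetyl-CoA. ATP citrate lyase (ACLY) makes it from citrate exported by mitochondria, and acetyl-CoA synthetase ACSS2 makes it from acetate. Acetyl-CoA carboxylase 1 (ACACA) turns acetyl-CoA into malonyl-CoA, and FA synthase (FASN), a single large protein with all the catalytic domains, builds palmitate from both. ACSL enzymes then join long-chain FAs to CoA, the form in which they enter glycerolipids or are oxidized. Mitochondria carry out the same chemistry with separate proteins on an acyl carrier protein: MCAT loads the malonyl group, OXSM is the condensing enzyme, and MECR is the last reductase of each cycle. A main product of this route is octanoate, the precursor of lipoate on the mitochondrial dehydrogenase complexes.

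Gene counts summed to between 11713037 and 36402932 per library (median 20452797), and spike-in RNAs took 0.2014 to 0.3026% of each library. Each of 7 epithelial markers was well counted in both lines, and their summed normalized count was 189966 to 268772 per library. Of the receptors by which a triple-negative line is defined, PGR reached at most 2.24 normalized counts, ESR1 94.5 to 513, and ERBB2 872 to 2214. Of 12 markers of other cell types, the leukocyte genes PTPRC and CD3E, the fibroblast gene COL1A2, and the adipocyte gene ADIPOQ each stayed under 5 normalized counts in every library. Others of the list reached more: ACTA2 (6.83 to 99.6), PECAM1 (7.82 to 60.8), VWF (0.894 to 35.6), PLIN1 (6.83 to 33.2), and PDGFRB (1.83 to 14.9). CD14 (483 to 3620) and COL1A1 (331 to 1665) made up most of that list's sum, which was 4234 to 4518 in MB468 and 2385 to 2967 in MB468res-R8 at 0 h, and 1810 to 2088 and 1215 to 1465 at 12 h. This sum therefore moved with line and time, and its part in the results was not tested. Fewer cells of a kind and less RNA per cell cannot be told apart in such bulk libraries.

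At 0 h, FASN and ACLY were the most abundant genes of the set in both lines. On a per-length scale (TMM-normalized CPM per kb of the reference transcript), FASN was highest in MB468, at 247 ± 6.51 (SD, n = 3), followed by ACLY at 173 ± 1.04. ACSL1 (115 ± 2.90) and ACSS2 (108 ± 6.35) came next and overlapped each other between libraries, and ACSL3 followed at 84.8 ± 1.38. The mitochondrial genes lay lower, with MCAT at 19.5 ± 0.805, MECR at 9.81 ± 0.769, and OXSM at 5.18 ± 0.238, and the ACSL4 level of 9.19 ± 0.307 overlapped that of MECR. MB468res-R8 kept this order apart from ACSL4 (8.61 ± 0.446), which lay above MECR (7.17 ± 0.160). ACACA was at the bottom in both lines, at 0.599 ± 0.226 and 0.403 ± 0.217.

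That level cannot be read as the abundance of ACACA RNA. ACACA (GRCh38 chr17:37084992-37406836, minus strand) had between 34 and 215 raw counts per library. Of its 501 stretches of 100 exonic bases, taken every 10 bases, 96.2% have an exact copy on an alternate contig of the hg38 sequence, chr17_KI270857v1_alt, which is as good a match for a read, and the part of this copy in the low counts was not tested. The other members had no such copy in any stretch. All 32 genes with a count row within 1 Mb of ACACA, itself included, had a mean normalized count under 200. The median was 559 over the genes that passed the low-count filter, which many of the 32 did not, and the share of all rows under 200 was not computed. AATF (17.5), GGNBP2 (9.01), and SYNRG (6.20) were among those that passed it. Of the 32, 15 were at 0 and did not pass it, nearly all of them TBC1D3 copies or genes of the CCL3 and CCL4 families. Whether the authors' reference held this contig is not given in the sources used here. ACACA passed the edgeR test in no comparison, and its group SD reached 54.0% of the mean. Without a low-count filter it passed at 0 h between the lines (-0.61) and in MB468 at 2 h (-0.51) and 12 h (-0.59), and nothing is read from these values.

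**Figure D1:**
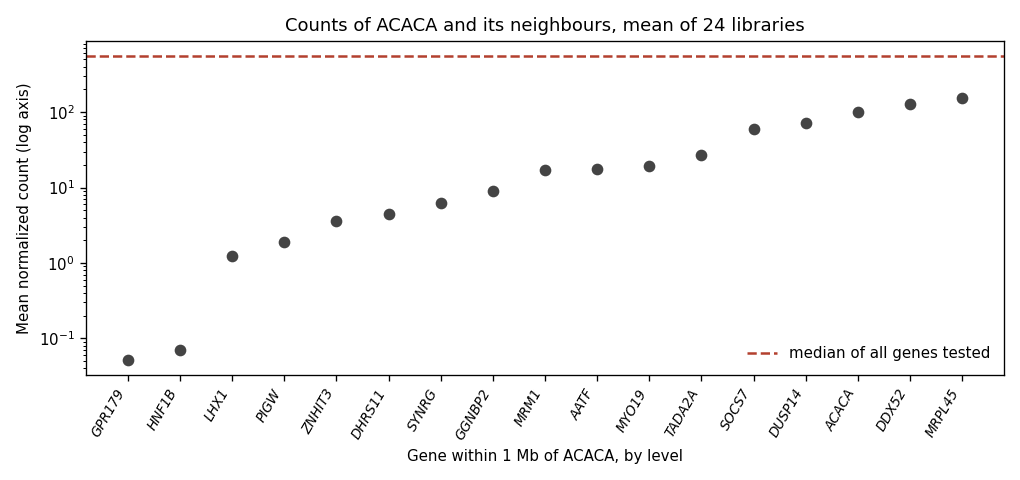
Mean normalized count over 24 libraries (log axis) of ACACA and the genes within 1 Mb of it whose mean was above 0, 17 in all, in order of level. The dashed line is the median of all genes tested (559), and each of the 17 lies below it. Some of the 17 did not pass the low-count filter and are not part of that median.

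The windows upstream of these genes were compared for short motifs because most members moved with others of their branch at 12 h. RefSeq windows of 250 bases before to 50 after a transcription start (GRCh38.p14) were matched by symbol for 8 of the 10 members, all but FASN and OXSM, using the window at the start of the reference transcript. Only the 250 bases before the start were searched, in the members and in all windows alike. The GC box GGGCGG, searched on both strands like every motif here, occurred in 8 of 8 windows and in 42.6% of 35116 windows overall. The CCAAT box CCAAT occurred in ACLY and ACSL3 (32% overall). The sterol regulatory element core TCACNCCAC (0.883% overall), the E-box CACGTG (6.34%), the amino acid response element core TGATGCAA (0.772%), and the palindromic NRF1 core (1.03%) matched in 0 of 8, which says only that these letters are absent from the bases searched. The parts of 4 windows that lie outside any exon are shown 5′ to 3′ along the gene, for both acetyl-CoA enzymes and for 2 mitochondrial genes, with GC and CCAAT boxes of either strand in capitals.
ACLY, chr17:41919023-41919201, minus strand: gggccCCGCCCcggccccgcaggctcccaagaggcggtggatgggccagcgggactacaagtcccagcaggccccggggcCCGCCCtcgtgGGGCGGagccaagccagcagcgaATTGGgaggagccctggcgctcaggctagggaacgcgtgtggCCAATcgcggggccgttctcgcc
ACSS2, chr20:34876362-34876571, plus strand: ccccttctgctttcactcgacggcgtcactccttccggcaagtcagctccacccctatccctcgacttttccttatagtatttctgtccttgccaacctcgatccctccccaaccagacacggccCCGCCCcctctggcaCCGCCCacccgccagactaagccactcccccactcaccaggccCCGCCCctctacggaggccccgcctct
MECR, chr1:29230943-29231184, minus strand: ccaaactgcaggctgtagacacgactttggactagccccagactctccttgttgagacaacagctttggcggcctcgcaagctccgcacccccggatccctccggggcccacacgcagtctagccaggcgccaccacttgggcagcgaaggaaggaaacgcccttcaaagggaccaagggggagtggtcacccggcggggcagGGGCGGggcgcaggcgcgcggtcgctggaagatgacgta
MCAT, chr22:43143399-43143648, minus strand: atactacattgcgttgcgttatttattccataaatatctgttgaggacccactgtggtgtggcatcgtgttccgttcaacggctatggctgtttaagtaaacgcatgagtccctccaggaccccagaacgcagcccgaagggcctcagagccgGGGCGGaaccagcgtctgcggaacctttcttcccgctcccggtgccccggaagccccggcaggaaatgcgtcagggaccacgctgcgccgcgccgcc
Acetyl-CoA enzymes and mitochondrial genes shared the GC box, with 3 copies in the stretch of ACLY, 3 in that of ACSS2, and 1 each in MECR and MCAT. Another ACLY copy, at 59 to 54 bases before the start, lies beyond the stretch shown. The stretches differ in length and copies per window were not counted over all windows, so no difference between the branches is read from these numbers. CCAAT boxes appeared only in ACLY among these 4 stretches, at 136 to 132 and 94 to 90 bases before the start, on opposite strands.

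The lines already differed at 0 h. In Met+ medium, 7 of the 10 genes passed edgeR's quasi-likelihood test (Benjamini-Hochberg adjusted p under 0.05) between MB468res-R8 and MB468, against 53.5% of the 14741 genes tested. Of these, 6 were lower in MB468res-R8 (27.1% of all genes) and ACSL1 was higher (26.4%). ACSS2 had the largest difference of the members that passed, a log2 fold change of -0.63 ± 0.068 (SE, adjusted p = 4.24e-08), and MECR and ACSL3 followed at -0.45 and -0.42. FASN (-0.17, adjusted p = 0.0318), ACLY (-0.14), MCAT (-0.22), and ACSL1 (0.12) differed by less. OXSM (-0.27, 95% interval -0.56 to 0.02), ACSL4 (-0.10), and ACACA (-0.61) did not pass. The FASN call was lost without MB468 replicate 1 or 2 or MB468res-R8 replicate 1 or 3, that of ACLY (-0.11) without MB468res-R8 replicate 3, and that of ACSL1 (0.09) without MB468res-R8 replicate 1. Without MB468res-R8 replicate 3, OXSM (-0.40) and ACACA (-1.08) passed. Spike-in totals as library sizes moved the median of all genes to -0.31. With them ACSL1 turned to -0.19 and did not pass, while OXSM (-0.57, adjusted p = 0.00339) and ACSL4 (-0.40, adjusted p = 0.00883) passed as lower.

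In the first 2 h, the members that passed were acyl-CoA synthetases. MCAT (-0.16 in MB468 at 0.5 h) did not pass in edgeR but did in DESeq2's Wald test (adjusted p = 0.0489). At 0.5 h, 2 of 10 genes passed in MB468 (33.9% of all genes tested) and 2 in MB468res-R8 (33.7%). ACSL4, which favors arachidonate and other polyunsaturated FAs, had normalized counts of 984, 1034, and 1050 at 0 h and 1394, 1446, and 1272 at 0.5 h in MB468, and 918, 943, and 1013 against 1143, 1179, and 1176 in MB468res-R8. Each library at 0.5 h lay above each at 0 h, and ACSL4 rose by log2 fold changes of 0.43 ± 0.0604 (adjusted p = 2.15e-07) and 0.29 ± 0.0611 (adjusted p = 0.000229). ACSL1 also rose in MB468 (0.16, adjusted p = 0.000392), where MB468res-R8 had 0.08 (adjusted p = 0.0696). ACSL3, a synthetase of ER and lipid droplets, fell in MB468res-R8 (-0.23, adjusted p = 5.77e-06) and had -0.09 in MB468 (adjusted p = 0.0529). This MB468 value lay at the threshold. DESeq2's Wald test called ACSL3 lower there as well (-0.11, adjusted p = 0.0105), as did edgeR without MB468 0 h replicate 3 (-0.12). In edgeR the 2 responses did not differ past the threshold (-0.13, adjusted p = 0.222).

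By 2 h, ACSL3 was the single member past the threshold in each line, against 16.3% of all genes in MB468 and 4.37% in MB468res-R8. Its normalized counts were 10880, 10829, and 10555 at 0 h and 12870, 12828, and 12653 at 2 h in MB468, and 8033, 8177, and 7852 against 9754, 9973, and 9669 in MB468res-R8. The groups did not overlap in either line, and ACSL3 rose by 0.25 ± 0.0374 (adjusted p = 2.28e-06) and 0.29 ± 0.0375 (adjusted p = 5.11e-07). FASN had log2 fold changes of -0.01 (95% interval -0.15 to 0.12) and 0.05 (-0.09 to 0.19) at this time. No member passed the edgeR test for a difference between the lines in response at 0.5 h (2.9% of all genes) or 2 h (5.07%), where DESeq2 also called 0 and 1 member had an unadjusted p under 0.05 at each time, ACSL3 and MCAT. In MB468, spike-in totals as library sizes moved the median of all genes to -0.20 at 0.5 h and -0.42 at 2 h. Under them ACSL1 at 0.5 h and ACSL3 at 2 h turned to -0.05 and -0.17, and 9 members passed as lower at 2 h. With these library sizes the rise of ACSL4 at 0.5 h did not pass in either line (0.21, adjusted p = 0.247, and 0.33, adjusted p = 0.103), and ACSL3 did not pass in MB468res-R8 at 0.5 h (-0.18, adjusted p = 0.452) or 2 h (0.24, adjusted p = 1.0), while MCAT passed as lower in MB468 at 0.5 h (-0.36, adjusted p = 0.0452). For ACSL4 in MB468res-R8 the estimate itself was no smaller than the 0.29 under TMM. Spike-in shares varied within that group, from 0.2142 to 0.2882% in the MB468res-R8 libraries at 0.5 h. With TMM factors, the count in MB468 was 4 without MB468 0 h replicate 3 at 0.5 h and 2 without MB468 2 h replicate 3 at 2 h.

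**Figure D2:**
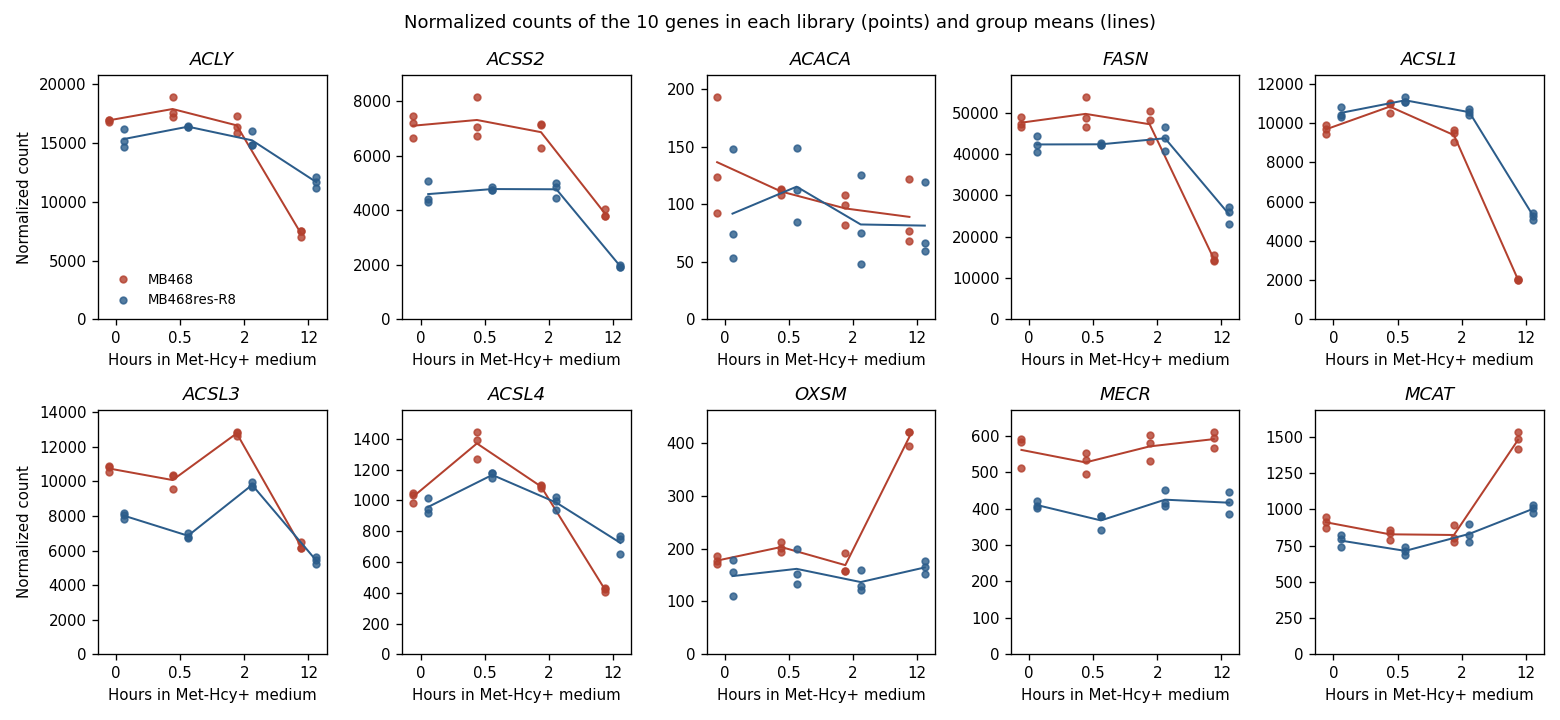
Normalized counts (vertical axis, from 0) of the 10 genes at 0, 0.5, 2, and 12 h (evenly spaced, not to scale), with a point per library and a line through the means of 3 libraries, MB468 in red and MB468res-R8 in blue. Cytosolic genes other than ACACA and all 3 ACSL genes are lowest at 12 h, whereas OXSM in MB468 and MCAT in both lines are highest there.

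After 12 h, the cytosolic synthesis genes other than ACACA were lower in both lines. Of the 10 genes, 8 passed in MB468 (70.8% of all genes tested) and 7 in MB468res-R8 (61.3%). In each line 6 were lower (34.7 and 31.1% of all genes), with 2 higher in MB468 and 1 in MB468res-R8 (36.1 and 30.2%). The median log2 fold change of the 10 was -0.83 and -0.40, against 0.01 and -0.02 over all genes tested. FASN (chr17:82078338-82098294, minus strand, 43 exons in its reference transcript) had normalized counts of 48977, 47141, and 46582 at 0 h and 14210, 14392, and 15499 at 12 h in MB468. In MB468res-R8 it had 42069, 44338, and 40481 at 0 h and 27113, 22985, and 26090 at 12 h. The 12 h libraries lay below the 0 h libraries in both lines and lowest in MB468. FASN fell to 0.309 of its 0 h level in MB468 (log2 -1.69 ± 0.0664, adjusted p = 6.45e-16) and to 0.601 in MB468res-R8 (-0.74 ± 0.065, adjusted p = 2.11e-09), and the responses differed by 0.96 ± 0.0917 (adjusted p = 9.11e-09, higher in MB468res-R8). For that difference, 8 of 10 members passed (56.5% of all genes), 5 of them higher in MB468res-R8 (26.2%) and 3 lower (30.3%).

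Both acetyl-CoA enzymes fell, but the lines differed in which fell further. ACLY (chr17:41866917-41930542, minus strand) had 16774, 16944, and 16956 normalized counts at 0 h and 6955, 7490, and 7508 at 12 h in MB468, against 15183, 16154, and 14592 and then 12129, 11180, and 11676 in MB468res-R8. It fell by 1.21 on the log2 scale in MB468 (adjusted p = 2.24e-25) and by 0.39 in MB468res-R8 (adjusted p = 2.44e-10). ACSS2 (chr20:34872146-34927962, plus strand) had 6637, 7194, and 7452 at 0 h and 3800, 3791, and 4027 at 12 h in MB468, and 4397, 5082, and 4294 and then 1919, 1913, and 1985 in MB468res-R8. Unlike ACLY, it fell by more in MB468res-R8 (1.24, adjusted p = 5.17e-13) than in MB468 (0.87, adjusted p = 5.95e-11), a difference of -0.37 ± 0.0982 (adjusted p = 0.00256). With spike-in totals as library sizes, which moved the median difference over all genes to 0.20, that difference was -0.11 (adjusted p = 0.67) while both falls still passed. The ACSS2 share of the summed per-length level of ACLY and ACSS2 does not depend on library scaling. It was 38.4 ± 1.26% (SD, n = 3) at 0 h and 44.1 ± 0.98% at 12 h in MB468, and 30.8 ± 0.939% and 19.8 ± 0.688% in MB468res-R8. No libraries overlapped between these times, and the share moved in opposite directions in the lines, which was not tested.

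The 3 ACSL genes fell in both lines at 12 h, and each fell further in MB468. ACSL1 (chr4:184755595-184826818, minus strand), the main isoform of oxidative and adipose tissues, had 9431, 9680, and 9921 normalized counts at 0 h and 2021, 1992, and 2069 at 12 h in MB468, and 10815, 10328, and 10426 and then 5062, 5443, and 5264 in MB468res-R8. This was the largest fall of the members, to 0.210 of the 0 h level in MB468 (log2 -2.25 ± 0.0391, adjusted p = 6.6e-36) and to 0.499 in MB468res-R8 (-1.0 ± 0.0372, adjusted p = 2.4e-24), except that ACSS2 fell further in MB468res-R8. ACSL4 (chrX:109624244-109733403, minus strand) had 404, 428, and 425 at 12 h in MB468 and 649, 770, and 752 in MB468res-R8, below each 0 h and 0.5 h library of the same line. Its log2 fold changes were -1.29 and -0.40, and the responses differed by 0.88 ± 0.0898 (adjusted p = 4.43e-11). ACSL3 (chr2:222860942-222944639, plus strand) went from its 2 h maximum to 6169, 6123, and 6490 in MB468 and 5226, 5454, and 5607 in MB468res-R8, with log2 fold changes of -0.78 and -0.56 relative to 0 h (both passed). The ACSL3 difference between the responses, 0.22 (adjusted p = 0.000603), was 0.11 and did not pass when total counts served as library sizes.

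The make-up of the ACSL pool was described by shares, with no test. ACSL1 was 54.9 ± 0.9% of the summed per-length level of the 3 genes at 0 h and 31.1 ± 0.292% at 12 h in MB468, while ACSL3 went from 40.7 ± 0.996% to 64.0 ± 0.339%. In MB468res-R8, ACSL1 was 63.4 ± 0.755% and then 55.8 ± 0.702%, and ACSL3 was 32.2 ± 0.719% and then 38.4 ± 0.723%. ACSL4 stayed between 4.00 and 6.05% in each library. ACSL1 was thus the larger part at both times in MB468res-R8, and ACSL3 the larger part at 12 h in MB468.

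**Figure D3:**
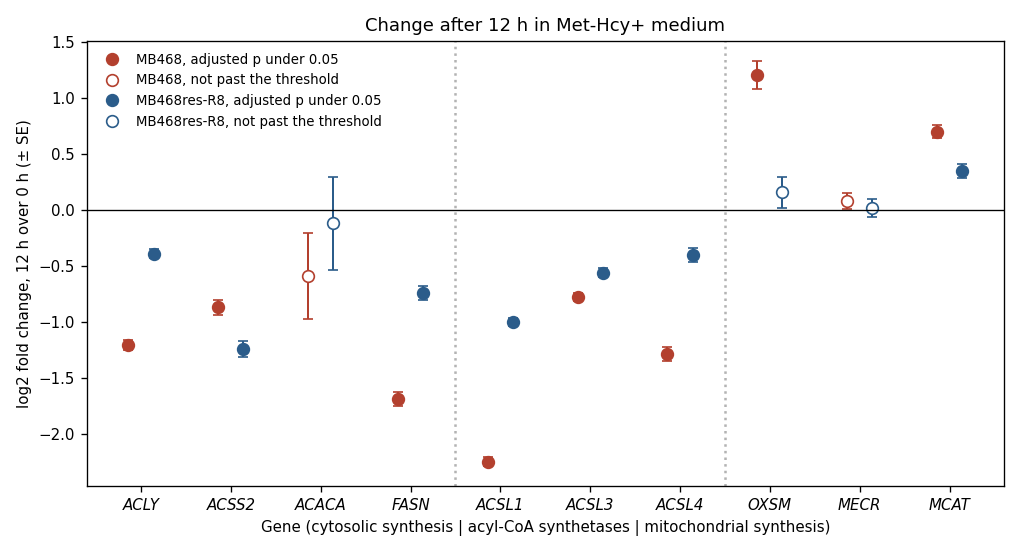
Log2 fold change at 12 h over 0 h (± SE) of the 10 genes in MB468 (red) and MB468res-R8 (blue), with filled points for an adjusted p under 0.05. The 3 cytosolic genes and 3 ACSL genes that passed lie below 0 in both lines, OXSM (1.21) and MCAT (0.70) lie above 0 in MB468, and MCAT (0.35) does in MB468res-R8.

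No mitochondrial synthesis gene was called lower at 12 h. OXSM (chr3:25782917-25794534, plus strand) had 170, 186, and 176 normalized counts at 0 h and 421, 394, and 420 at 12 h in MB468, and 155, 111, and 178 and then 165, 151, and 177 in MB468res-R8. The MB468 libraries at 12 h lay above all others of either line, whereas the MB468res-R8 groups overlapped. OXSM rose 2.32-fold in MB468 (log2 1.21 ± 0.124, adjusted p = 2.02e-11), was 0.16 in MB468res-R8 (95% interval -0.13 to 0.45), and differed between the responses by -1.05 ± 0.185 (adjusted p = 5.63e-06). MCAT (chr22:43132209-43143398, minus strand) had 949, 909, and 874 at 0 h and 1485, 1417, and 1534 at 12 h in MB468, and 820, 792, and 739 and then 1010, 975, and 1027 in MB468res-R8. It rose in both lines, 1.62-fold (adjusted p = 1.86e-13) and 1.28-fold (adjusted p = 5.95e-06), and its groups did not overlap. The MCAT difference between the responses, -0.34 (adjusted p = 0.000842), was -0.08 (adjusted p = 0.776) with spike-in totals as library sizes.

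MECR (chr1:29192657-29230942, minus strand) had 591, 511, and 582 normalized counts at 0 h and 567, 595, and 611 at 12 h in MB468, and 420, 407, and 403 and then 447, 418, and 384 in MB468res-R8. The times overlapped in both lines, with log2 fold changes of 0.08 (95% interval -0.07 to 0.23) and 0.02 (-0.14 to 0.19). The libraries were not strand-specific, and OXSM starts 51 bases from the start of NGLY1 on the other strand. NGLY1, a cytosolic deglycosylase, rose by 0.51 in MB468 and 0.52 in MB468res-R8 (difference 0.00 ± 0.0877, adjusted p = 0.992), unlike OXSM. Exons of ACLY overlap those of a long noncoding RNA on the other strand over 156 bases, and the start of ACACA lies 50 bases from that of TADA2A, whose mean count was 26.9. Long noncoding RNAs start on the other strand 639 bases from ACSL1 (ENSG00000286256) and 222 bases from ACSL4 (ENSG00000289365), and neither had a count row under its identifier.

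Set against FASN within the same library, which removes library scaling, the mitochondrial genes stood higher at 12 h in both lines. FASN had 287, 252, and 264 counts for each OXSM count at 0 h and 33.7, 36.5, and 36.9 at 12 h in MB468, and 271, 398, and 227 and then 164, 151, and 147 in MB468res-R8. The libraries of the times did not overlap, and the OXSM-to-FASN ratio was 7.49-fold higher at 12 h in MB468 and 1.88-fold higher in MB468res-R8. For MCAT, FASN had 51.6, 51.8, and 53.3 counts per count at 0 h and 9.57, 10.2, and 10.1 at 12 h in MB468, against 51.3, 55.9, and 54.7 and 26.8, 23.6, and 25.4 in MB468res-R8, ratios that were 5.25-fold and 2.14-fold higher at 12 h. The MECR ratio was 3.41-fold and 1.69-fold higher, although MECR itself had log2 fold changes of only 0.08 and 0.02. FASN fell to 0.309 and 0.601 of its 0 h level, so a gene that did not change also gives a higher ratio. The share of all genes with such ratios was not computed. Each of these 6 ratios had p = 0.1 in the exact two-sided permutation test, the smallest p for 3 against 3 libraries. At 0.5 and 2 h, the log2 ratios of the 3 genes differed from 0 h by -0.20 to 0.14. The same p of 0.1 was reached in the exact permutation test at 0.5 h in the opposite direction by MCAT in MB468 (-0.20) and MB468res-R8 (-0.14) and by MECR in MB468res-R8 (-0.16).

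**Figure D4:**
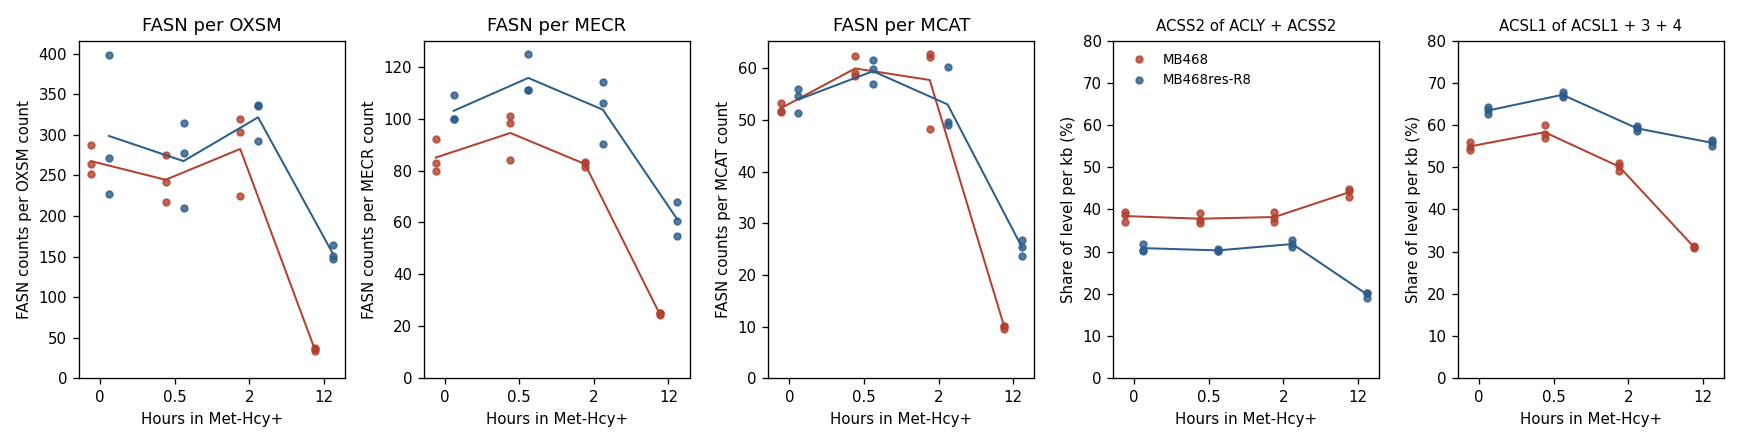
FASN counts per count of OXSM, MECR, and MCAT, the ACSS2 share of ACLY plus ACSS2, and the ACSL1 share of ACSL1, ACSL3, and ACSL4 (shares of per-length level, percent), with a point per library and lines through the means at 0, 0.5, 2, and 12 h (evenly spaced, not to scale), MB468 in red and MB468res-R8 in blue. The FASN ratios drop at 12 h in both lines, and the ACSS2 share is 44.1% in MB468 and 19.8% in MB468res-R8 at that time.

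The lines were also compared with each other after the switch. Between MB468res-R8 and MB468 at 12 h, 9 of the 10 genes passed (73.1% of all genes tested), 4 higher (33.9%) and 5 lower (39.2%). These were ACSL1 (log2 1.37), FASN (0.79), ACSL4 (0.79), and ACLY (0.67) higher in MB468res-R8 and OXSM (-1.32), ACSS2 (-1.0), MCAT (-0.56), MECR (-0.50), and ACSL3 (-0.21) lower. FASN and ACLY, both lower in MB468res-R8 at 0 h, were thus the higher of the lines at 12 h, and the 2 genes overlapped each other per length within each line, at 76.3 ± 3.62 and 74.9 ± 3.22 in MB468 and 132 ± 11.2 and 119 ± 4.86 in MB468res-R8. MCAT (31.6 ± 1.25) lay above ACSL1 (24 ± 0.458) in MB468, whereas ACSL1 (62.2 ± 2.26) followed FASN and ACLY in MB468res-R8. ACSL3 had -0.25 and did not pass with spike-in totals as library sizes. These comparisons share their 12 h or 0 h libraries with those above.

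Genes around cytosolic synthesis were counted in fixed lists. Alternative library sizes were read for the 10 members only, so the calls of list genes, here and below, rest on TMM factors. With spike-in totals the median of all genes was -0.23 in MB468 at 12 h and 0.20 for the difference of response, and small list changes were not tested against this. The list of partners of the cytosolic enzymes also holds ACOT2, ACOT13, and MLYCD, and not all of its proteins are cytosolic. Of its 15 tested genes, 11 were lower and 2 higher at 12 h in MB468. In MB468res-R8, 12 were lower with none higher, where ACOT7 had 0.05 (adjusted p = 0.422), ACO1 -0.08, and OLAH -0.06. Over all genes tested, here and for each list that follows, 34.7% were lower and 36.1% higher in MB468, and 31.1% lower and 30.2% higher in MB468res-R8. Log2 fold changes in MB468 and MB468res-R8 were -1.22 and -0.49 for the citrate carrier SLC25A1, -0.90 and -0.39 for ME1 and -0.91 and -0.72 for IDH1, both sources of NADPH, and -0.96 and -0.25 for the acyl-CoA binding protein DBI, all past the threshold. ACAT2 (-1.84 and -0.46) and AACS (-1.43 and -0.31), both of which draw on cytosolic acetyl units, fell further in MB468. MID1IP1, which promotes polymerization of acetyl-CoA carboxylase, rose by 1.13 in MB468 and fell by 0.20 in MB468res-R8, and MLYCD, which degrades malonyl-CoA, had 1.28 and -0.27. The responses of both differed between the lines (-1.33, adjusted p = 6.32e-17, and -1.55, adjusted p = 5.87e-12). ACACB, the other acetyl-CoA carboxylase, had -0.09 in MB468 (adjusted p = 0.319) and fell by 0.47 in MB468res-R8.

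Among 13 tested regulators of lipogenic transcription, 6 were higher and 5 lower in MB468 at 12 h, and 2 were higher and 8 lower in MB468res-R8. All genes gave 36.1 and 34.7% in MB468, near the shares of this list, and 30.2 and 31.1% in the other line. Log2 fold changes in MB468 and MB468res-R8 were -1.24 and -0.73 for SREBF1, -0.72 and -0.86 for SREBF2, and -3.37 and -2.31 for the sterol-responsive INSIG1, which retains SREBP in the ER. MLXIPL, the carbohydrate-responsive factor, had -1.83 and -1.15, and all of these passed. INSIG1 had moved the other way earlier, with 0.37 and 0.31 at 0.5 h and 0.47 at 2 h in MB468. SCAP (0.34 and -0.18) and USF2 (0.41 and -0.34) were called in opposite directions at 12 h. Of 6 tested subunits of AMPK, the kinase that phosphorylates acetyl-CoA carboxylase, 3 were higher and 2 lower in MB468 at 12 h, and 3 were higher and 1 lower in MB468res-R8 (all genes: 36.1 and 34.7%, and 30.2 and 31.1%). PRKAG2 fell at 0.5 h in both lines (-0.84 and -0.70), did not differ from 0 h past the threshold at 2 h (0.14, adjusted p = 0.0633, and -0.13, adjusted p = 0.229), and was lower again at 12 h (-0.71 and -0.86). Its 2 h responses differed between the lines by -0.27 (adjusted p = 0.0243).

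Of 10 other tested acyl-CoA synthetases and transport proteins, 4 were higher and 3 lower at 12 h in MB468, and 2 were higher and 4 lower in MB468res-R8, shares near those of all genes in MB468 (36.1 and 34.7%) and beside 30.2 and 31.1% in MB468res-R8. The mitochondrial acetyl-CoA synthetase ACSS1 rose by 0.41 in MB468 and fell by 0.93 in MB468res-R8 (difference -1.33, adjusted p = 8.61e-08), in the same direction of difference as ACSS2. ACSS3 fell by 1.13 in MB468res-R8 and had 0.12 in MB468. The FA transport proteins SLC27A2 (0.73 and 0.47) and SLC27A4 (0.49 and 0.50) rose in both lines.

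Around the mitochondrial enzymes, 3 of 6 tested partners were higher and 1 lower in MB468 at 12 h, and 4 were higher in MB468res-R8 (all genes: 36.1% higher and 34.7% lower, and 30.2% higher), where CBR4 had -0.01 and ACSF3 0.03. AASDHPPT, which attaches the phosphopantetheine arm of the carrier protein, rose by 0.56 and 0.59, and RPP14, which shares a transcript with the dehydratase of the pathway, by 0.56 and 0.37. NDUFAB1, the acyl carrier protein, fell by 0.47 in MB468 and rose by 0.36 in MB468res-R8 (difference 0.83, adjusted p = 0.00195). ACSF3, a malonyl-CoA synthetase, had 0.11 and 0.03 and did not pass, and CBR4, a ketoacyl reductase subunit, had -0.01 in both lines. Of 9 genes of lipoate attachment and the lipoylated complexes, 1 was higher and 5 lower in MB468 (36.1 and 34.7% of all genes), and 5 were higher and 2 lower in MB468res-R8 (30.2 and 31.1%). Only GCSH and DLAT of the 9 were called in opposite directions, while LIPT1 (0.46 and 0.37) rose and PDHX (-0.55 and -0.14) fell in both lines. GCSH, the lipoylated glycine cleavage protein, fell by 0.91 in MB468 and rose by 0.55 in MB468res-R8, DLAT of pyruvate dehydrogenase had -0.34 and 0.20, and the lipoyl synthase LIAS had 0.17 (adjusted p = 0.224) and rose by 0.81. In 7 of these 9 genes, the response of MB468res-R8 was the higher (26.2% of all genes), opposite in sign to the differences of OXSM and MCAT. LIPT1 (-0.10) and LIPT2 (-0.21), both enzymes of lipoate transfer, were the other two, and neither difference passed.

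**Figure D5:**
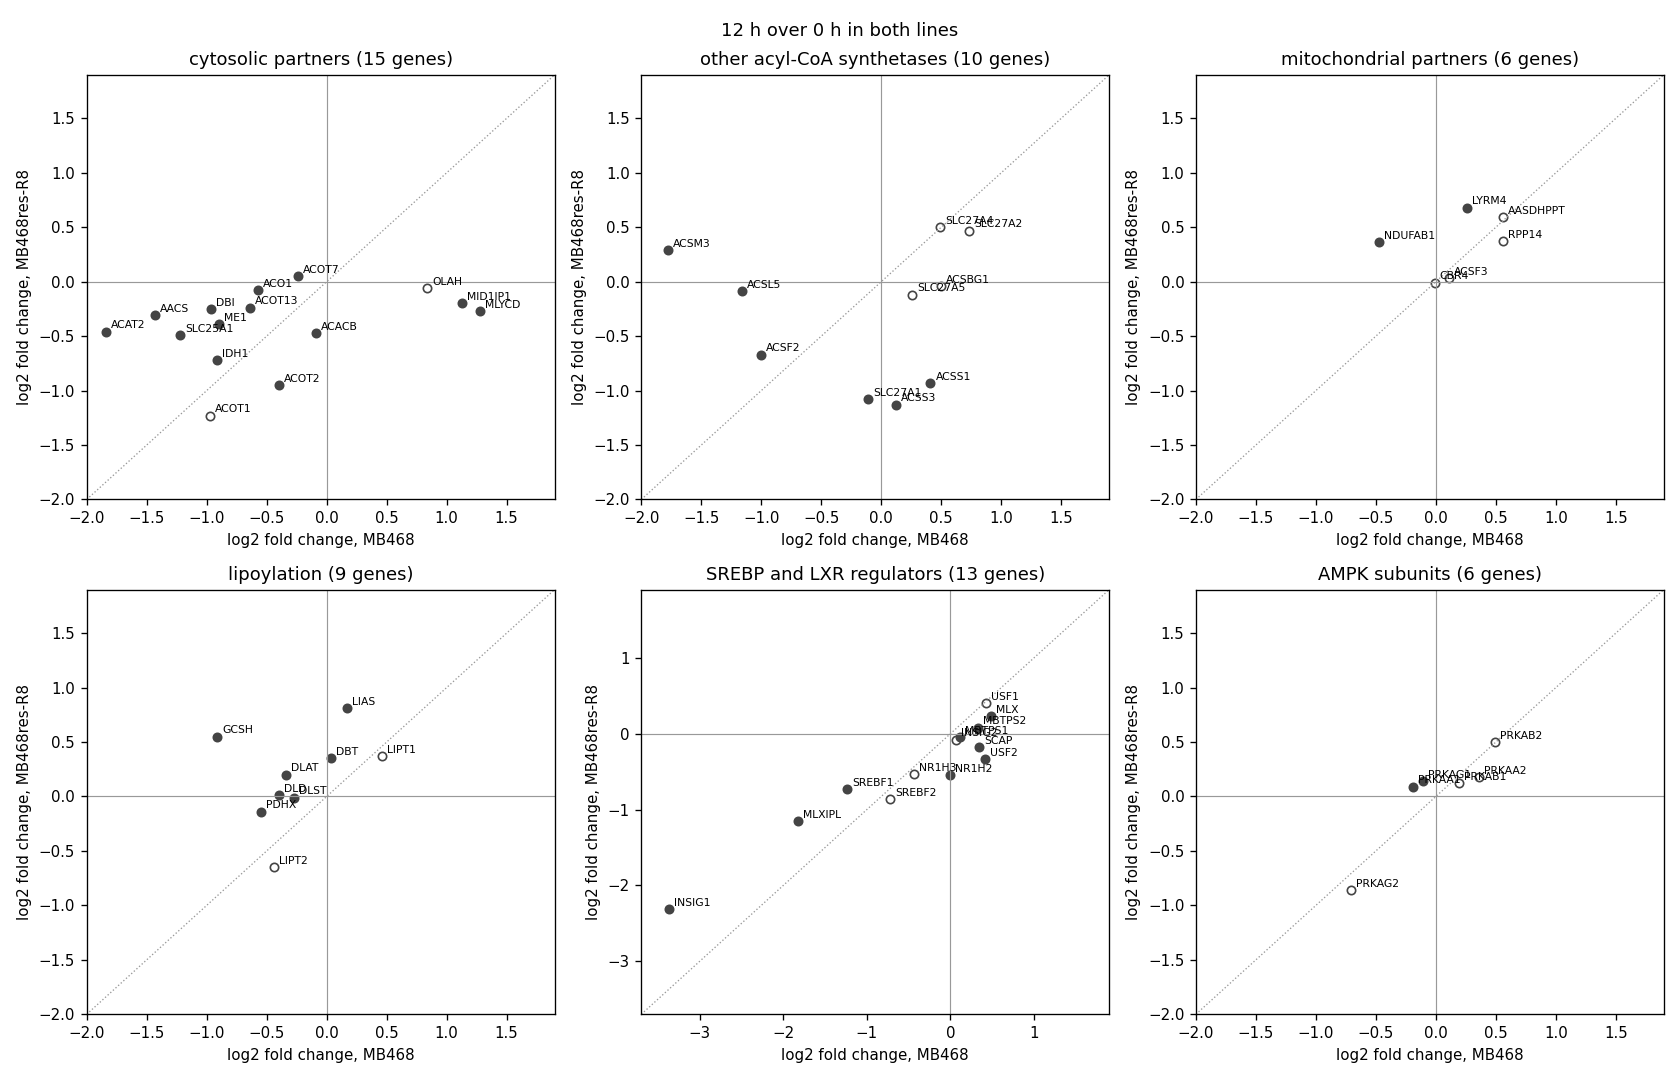
Log2 fold change at 12 h over 0 h in MB468 (horizontal) and MB468res-R8 (vertical) for the tested genes of 6 lists, with filled points where the responses differed (adjusted p under 0.05) and a dotted line of equality. GCSH (-0.91 and 0.55) and 6 other lipoylation genes lie above the line, LIPT1 and LIPT2 lie below it, and MID1IP1 (1.13 and -0.20) and MLYCD (1.28 and -0.27) lie farther below.

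Other genes followed the profiles of FASN and OXSM closely. Over the 8 group means of log2 normalized counts, and among 10009 genes with a mean of at least 3 log2 CPM, those most like FASN were SGSM2 (Pearson r = 0.998), PRKACA (0.997), RDH11 (0.997), MARCKSL1 (0.996), and ANXA6 (0.996). Those most like OXSM were DNAJC3 (0.995), ZNF496 (0.994), ARHGEF5 (0.993), FAM83F (0.992), and OGFR (0.990). Within the set, FASN correlated at 0.99 with ACLY and 0.98 with ACSL1 but at 0.65 with ACSS2, and OXSM correlated at 0.87 with MCAT and -0.86 with ACSL1. These are descriptions over 8 points that share their libraries and are dominated by the 12 h groups.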

How the data were processed

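Poly(A) RNA of both lines was sequenced (single-end, unstranded, spike-ins added). The deposited counts are raw reads per gene, which the authors obtained with HISAT2 2.1.0 against GRCh38/hg38 plus spike-ins and featureCounts (Subread 1.5.3), per the labels and methods. The deposited normalized matrix and the authors' comparison table were not used. Every one of the 24 count columns was a sample of the series (0 others). Members and lists were chosen with earlier results of these data known.

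Counts were analysed with edgeR 4.0.16 in R 4.3.3: filterByExpr (minimum count 10, minimum total 15; 14741 genes), TMM factors, robust quasi-likelihood fit with a mean per group over 24 libraries (16 residual df), and Benjamini-Hochberg adjustment over all genes at 0.05. Normalized counts are counts over effective library size times its mean. Per-length levels use the reference (MANE) transcript in GENCODE v44. Ratios used a pseudocount of 0.5. Named genes are all members, up to 4 of each list per direction and comparison, list genes with opposite calls, direct partners of a member, genes starting within 1000 bases on the other strand, and the 5 genes most like FASN and OXSM. The labels do not say whether a group's libraries came from separate cultures, so p-values measure only the spread between them. On simulated data for MB468 at 12 h (14741 genes, 200 changed), 83% of 2-fold and 95% of 4-fold changes were called, and 7.77% of calls were unchanged genes. Alternatives were DESeq2 1.42.0 (test and size factors), total or spike-in counts as library sizes, other filters, an adjusted p of 0.01, fewer groups, the replicate block, and leaving out each library. Over all groups, same-numbered libraries did not deviate together (mean correlation -0.0199, other pairs 0.0105), so the numbers were not taken to pair them. Those of MB468res-R8 at 0 and 2 h had a mean of 0.277 (other pairs -0.138), so partial pairing there cannot be told. The level of 1 gene of the marker list for other cell types is not reported here by itself, although the summed level of that list includes it.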

Additional observations from a re-analysis of the deposited data

Results flagged for a closer look

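For 8 of the 10 genes, the 12 h response of MB468res-R8 differed from that of MB468 in edgeR's quasi-likelihood test (adjusted p under 0.05), against 56.5% of all 14741 genes tested. The difference in log2 fold change, MB468res-R8 minus MB468, was 1.25 for ACSL1, 0.96 for FASN, 0.88 for ACSL4, 0.81 for ACLY, and 0.22 for ACSL3, each of which fell less in MB468res-R8. It was -0.37 for ACSS2, which fell more there, -0.34 for MCAT, which rose less there, and -1.05 for OXSM, which rose in MB468 and had 0.16 in MB468res-R8 (adjusted p = 0.326). With spike-in totals as library sizes, ACSS2 (-0.11) and MCAT (-0.08) did not pass, and with total counts, ACSL3 (0.11) did not.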

How the results depend on the processing

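Of 1830 alternative values for single genes, 1776 kept their side of the threshold, 34 newly passed with the same sign, 15 no longer passed, and 5 changed sign where either value passed. Of the 1776, 1686 also kept their sign, and in 90 the sign changed with neither value past the threshold, 17 of them with spike-in totals and 64 on leaving out a library. All 5 sign changes that involved a call came with spike-in totals as library sizes: ACSL1 at 0 h between the lines (-0.19), and in MB468 ACSL1 at 0.5 h (-0.05) and ACSL3 (-0.17), ACSL4 (-0.33), and MECR (-0.40) at 2 h. Under that scaling the median of all genes was -0.31 at 0 h between the lines, and -0.20, -0.42, and -0.23 in MB468 at 0.5, 2, and 12 h. It was 0.26, 0.38, and 0.20 for the differences of response (-0.05 under TMM at 12 h), and -0.11 between the lines at 12 h (-0.06 under TMM). The members called were then 1 (MB468, 0.5 h), 9 (MB468, 2 h), 0 and 0 (MB468res-R8, 0.5 and 2 h), and 1 (difference at 2 h), and 8 and 7 at 12 h. Of all genes called, 15% were higher at 0 h between the lines (49.4% under TMM), 14, 2.52, and 30.0% in MB468 (51.8, 54.3, and 51.0%), and 79.2, 93.0, and 69.9% for the differences (41.4, 43.2, and 46.3%). Total counts gave 39.4% in MB468 at 2 h, 47.2% in MB468res-R8 at 2 h (57.8%), and 35.9% for the 12 h difference. The median of that difference was -0.16 with total counts and -0.05 under TMM. Counts over all genes went from 5000 to 3287 and 2410 to 9511 in MB468 at 0.5 and 2 h, from 4967 to 2023, 644 to 180, and 9036 to 5887 in MB468res-R8, and from 428 to 101 for the 0.5 h difference with spike-in totals. In MB468 at 0.5 h, 4 members were called with at least 10 counts in every library and by DESeq2, and in MB468 at 2 h, 2 without a low-count filter. In MB468res-R8 at 0.5 h, 4 were called with total counts and with only the groups compared.

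Leaving out each library gave 5 to 7 members between the lines at 0 h, 2 to 4 and 1 to 2 in MB468 at 0.5 and 2 h, 2 to 3 and 1 in MB468res-R8, and 8, 7, 8, and 9 for the 12 h comparisons (MB468, MB468res-R8, their difference, and between the lines). The replicate block changed no member's call, with 8 and 7 called at 12 h. For the ratios to FASN (2.91 for OXSM in MB468), the block gives the main value by construction, so it tests nothing there. In no comparison did each same-numbered pair exceed a correlation of 0.1, a rule that partial pairing would also fail. Between 0 and 2 h in MB468res-R8, same-numbered libraries had a mean correlation of 0.277 (-0.0294 to 0.466), against -0.138 for other pairs. In the thinnest member, ACACA, 34 to 215 counts limit what can be detected, followed by OXSM with 81 to 689.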
